A study of Caenorhabditis elegans with 16 samples.

Results

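The miRNAs that came down with the endogenous lin-41 transcript were compared with those that came down with the endogenous gld-1 transcript, both from wild-type young adult Caenorhabditis elegans of strain N2. All libraries labelled as N2 lin-41 or N2 gld-1 elutions were taken, except those whose label names an edit. This gave 2 lin-41 and 2 gld-1 libraries of the 16 in the series. In this pulldown (vIPR), ultraviolet crosslinking of live worms fixes proteins to RNA, and biotinylated antisense DNA probes then fish out a chosen mRNA. Transcript-specific probes tiled along the whole mRNA were used for lin-41 and gld-1 alike, so that the target and its probes changed together. Both tagged transcripts, a gfp::lin-41 made by tagging the endogenous gene (strain DG3913, 1 library) and a gld-1::gfp transgene (strain BS1080, 2 libraries), were retrieved with gfp probes. The control (3 libraries) used the gfp probes on N2, which carries no gfp, so that it does not match the probes of the endogenous pulldowns. The series also holds alg-1 pulldowns from N2 (2 libraries) and gld-1 pulldowns from 2 CRISPR-edited strains (2 libraries each). In the strain called seed destruction, the edit removed the predicted pairing of gld-1 with the miR-84 seed. In the strain called changed specificity, the edit was designed to turn this site into one for let-7. These libraries entered the model fit but not the comparison. Whole worms were used, and replicates are separate elutions whose cultures the labels do not describe. The p-values rest on a spread between replicate libraries, which may be technical. It was estimated over all 16 libraries and shared between miRNAs, so that it is not that of the lin-41 and gld-1 libraries alone.

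LIN-41 is a TRIM-NHL RNA-binding protein that acts in developmental timing and in oocytes, and its mRNA is the classical target of the let-7 miRNA. GLD-1 is a STAR-family RNA-binding protein that represses translation in the germline. A miRNA guides an Argonaute protein (mainly ALG-1 and ALG-2 in worm soma) to mRNAs that pair with its seed, so that members of a seed family, such as let-7-5p, miR-48-5p, miR-84-5p and miR-241-5p, could in principle pair with the same sites. Both target genes lie on chromosome I of the WBcel235 assembly, lin-41 at 9334800 to 9342496 on the minus strand and gld-1 at 7695681 to 7698222 on the plus strand.

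The lin-41 libraries held 1055420 and 163422 miRNA reads, the gld-1 libraries 181172 and 408243, and the control libraries 12474 to 73899. At least 1 read was found for 202 miRNAs in the 4 endogenous libraries, and 112 miRNAs had at least 10 reads in at least 2 libraries of the series and were tested. Of these, 95 had a read in all 4 libraries.

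Very few miRNAs made up each endogenous pulldown, and they were not the same ones. In lin-41 elutions let-7-5p and miR-72-5p together took 95.3% and 89.7% of the miRNA reads. In gld-1 elutions the leading pair was miR-84-5p and miR-65-5p, with 57.6% and 80.1%. In the control the leading 2 miRNAs took 32.4% to 40.6%. Expressed as the number of equally abundant miRNAs that would give the same Shannon entropy, the content was 1.98 and 3.22 in lin-41, 8.23 and 4.84 in gld-1 and 17.7 to 22.2 in the control, so that both lin-41 values lay below both gld-1 values and all endogenous values lay below the control.

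**Figure D1:**
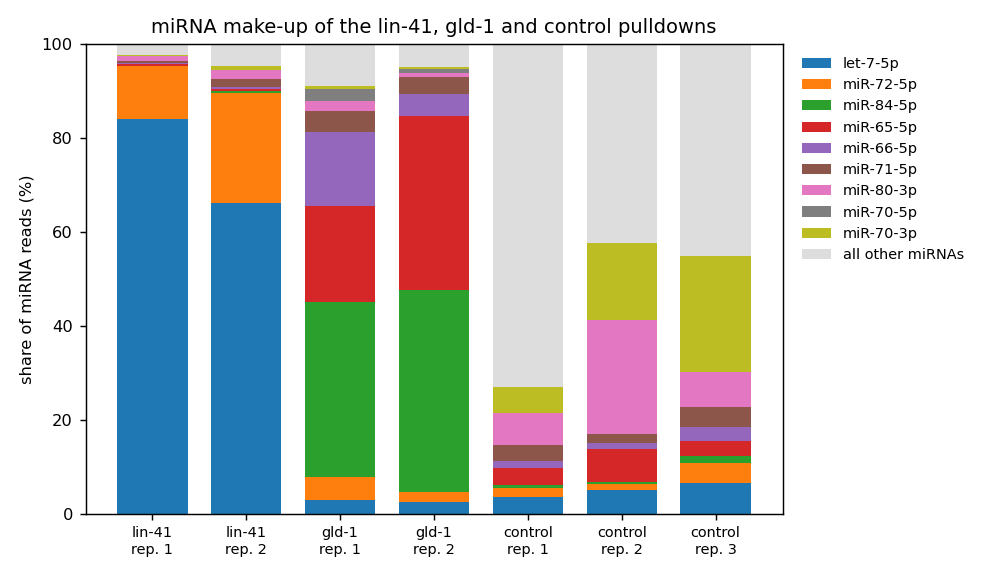
Share of miRNA reads (%, vertical axis) in each lin-41, gld-1 and control library (one bar per library), with the leading miRNAs in colour and all others in grey. let-7-5p and miR-72-5p fill most of both lin-41 bars (95.3% and 89.7%), whereas miR-84-5p and miR-65-5p lead both gld-1 bars (57.6% and 80.1%).

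Because single miRNAs can fill a library, fold changes were computed after trimmed-mean (TMM) normalisation and are relative to the bulk of the miRNAs, whose median log2 fold change between lin-41 and gld-1 was -0.088. With an adjusted p-value below 0.05 (edgeR quasi-likelihood test, Benjamini-Hochberg adjustment over the 112 miRNAs), 9 miRNAs were higher with lin-41 (8.04% of those tested) and 8 were lower (7.14%). The sizes of these 17 differences ran from 1.83 to 8.61 on the log2 scale, with SE from 0.62 to 1.43. All 17 had every lin-41 library on one side of every gld-1 library after normalisation, but so did 60.7% of all tested miRNAs. As plain shares of reads, 16 of the 17 were also separated, with miR-241-5p as the exception, again beside 60.7% of all tested miRNAs. Scaling by library totals moved the median of all miRNAs to -1.37 and the split to 5 higher and 16 lower, so that the balance between directions rests on the scaling.

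**Figure D2:**
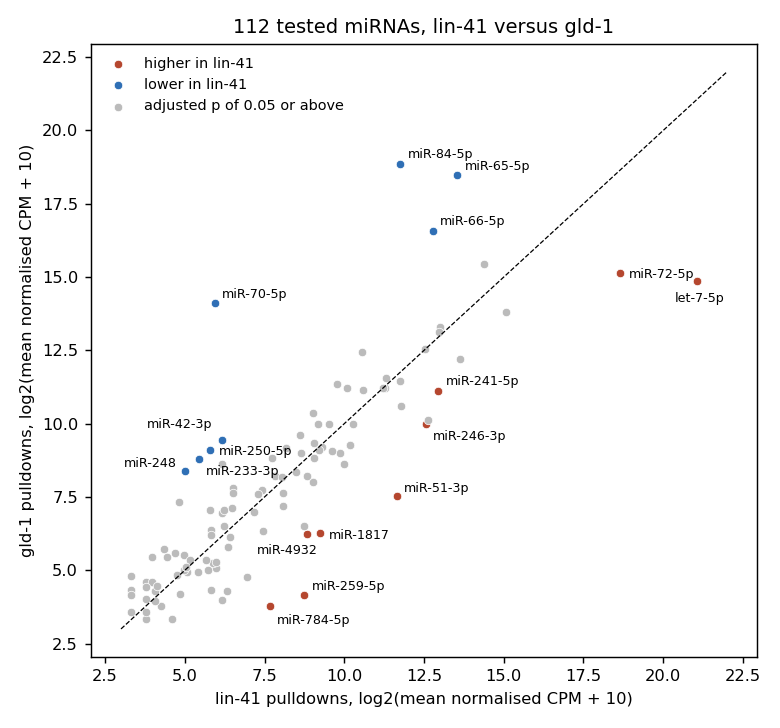
Mean level of each of the 112 tested miRNAs in lin-41 pulldowns (horizontal axis) and gld-1 pulldowns (vertical axis), both as log2(mean normalised CPM + 10) over 2 libraries. Red points are the 9 miRNAs higher with lin-41, blue points the 8 lower, grey points had adjusted p-values of 0.05 or above, and the dashed line marks equal levels.

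The let-7 family was split between the transcripts. let-7-5p (X, 14743590 to 14745321, the RefSeq gene record) is the heterochronic miRNA that controls the larval to adult switch. It took 84.0% (Wilson 95% interval 84.0 to 84.1) and 66.2% (66.0 to 66.5) of reads in lin-41 libraries, against 2.86% (2.78 to 2.94) and 2.47% (2.43 to 2.52) in gld-1 libraries. These intervals cover counting error only, and the gap between the replicates of lin-41 exceeds them by far. The groups did not overlap, with a log2 fold change of 6.16 ± 0.78 (SE, adjusted p = 1.5e-06, edgeR).

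miR-84-5p (X, 16022404 to 16022478) showed the opposite arrangement. It made up 0.0628% and 0.278% of lin-41 reads, and 37.3% and 43.1% of gld-1 reads, a log2 fold change of -7.11 ± 0.83 (adjusted p = 5.3e-07, edgeR). Within a library, where no normalisation is needed, let-7-5p over miR-84-5p (log2 of reads + 1) was 10.38 and 7.89 with lin-41 and -3.70 and -4.12 with gld-1. The control libraries lay between, at 2.04 to 4.01. With the gfp probes it was 10.18 for gfp::lin-41 and -3.99 and -3.43 for gld-1::gfp, so that each tagged library lay nearer to the untagged libraries of its own transcript than to those of the other.

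Of the remaining members only miR-241-5p passed the test. miR-241-5p and miR-48-5p, whose genes lie 1679 bp apart on chromosome V and which act with miR-84 in larval timing, were not tested against each other. miR-241-5p had 1833 and 926 reads with lin-41 and 490 and 618 with gld-1, a log2 fold change of 1.83 ± 0.62 (adjusted p = 0.043, edgeR), although its shares of reads overlapped (0.174% and 0.567% in lin-41, 0.270% and 0.151% in gld-1). miR-48-5p took 0.285% and 0.315% of lin-41 reads and 0.750% and 0.770% of gld-1 reads, and its log2 fold change of -0.13 ± 0.59 (adjusted p = 0.93, edgeR) changed sign with the scaling. Of the 7 family members 6 were tested, with 2 higher and 1 lower (8.04% and 7.14% of all tested miRNAs) and a median log2 fold change of 0.45. miR-793 (1.04) and miR-795-5p (-1.35) did not pass. Summed over the family, the share of reads was 84.5% and 67.4% with lin-41 and 41.2% and 46.5% with gld-1, against 7.43% to 12.8% in the control. Whether the members differ from each other was not tested.

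The miR-64 family, made of miR-64-5p, miR-65-5p, miR-66-5p and miR-229-5p, was lower with lin-41 for 2 of its 4 members (7.14% of all tested miRNAs were). Its genes form a cluster on chromosome III inside gcn-1 on the same strand, with 7 bp from the end of the mir-65 precursor (2173002 to 2173101) to the start of that of mir-66 (2173108 to 2173206). miR-65-5p took 0.381% and 0.572% of lin-41 reads and 20.4% and 37.0% of gld-1 reads (log2 fold change -4.93 ± 0.74, adjusted p = 1.3e-05, edgeR). miR-66-5p took 0.180% and 0.438% of lin-41 reads and 15.8% and 4.67% of gld-1 reads (-3.80 ± 0.66, adjusted p = 8.3e-05, edgeR).

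Both were also above the control in gld-1 pulldowns. The neighbours miR-64-5p (-0.32 ± 0.83, adjusted p = 0.89, edgeR) and miR-229-5p (0.64 ± 0.71, adjusted p = 0.69, edgeR) did not pass. Summed over the family, the share was 0.897% and 1.26% with lin-41 and 37.3% and 42.5% with gld-1, against 7.58% to 19.1% in the control. Such shares fall where other miRNAs fill a library. After normalisation miR-65-5p and miR-66-5p with lin-41 were at 0.30 ± 0.57 and 0.83 ± 0.53 against the control (adjusted p = 0.77 and 0.32, edgeR). In normalised CPM, miR-64-5p with lin-41 (12648 and 3588) lay within the control range (3095 to 21632). miR-229-5p lay below its control range (593 to 1554) both with lin-41 (469 and 419) and with gld-1 (390 and 180).

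The strongest difference in size was that of miR-70-5p (V, 6665536 to 6665635, within pmp-5 on the same strand). It had 4 and 9 reads with lin-41 and 4612 and 4146 with gld-1, and 0, 0 and 1 in the control libraries. Its log2 fold change was -8.61 ± 1.15 (adjusted p = 9.3e-06, edgeR), and the summed reads gave a ratio of lin-41 to gld-1 of 0.00198 (exact 95% interval 0.00105 to 0.00338, counting error only).

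Its partner arm from the same hairpin, miR-70-3p, did not follow it. miR-70-3p had 2932 and 1505 reads with lin-41 and 1055 and 1297 with gld-1 (1.43 ± 0.68, adjusted p = 0.18, edgeR), and 3075 to 6957 in the control. The 5p arm therefore held 0.136% and 0.594% of the reads of this precursor with lin-41 and 81.4% and 76.2% with gld-1. With gld-1::gfp, it held 0.816% and 0.580%, on 23 and 17 reads.

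Arm use also differed at mir-51 (IV, 11026013 to 11026112). miR-51-3p had 744 and 379 reads with lin-41 and 45 and 42 with gld-1 (4.19 ± 0.71, adjusted p = 7.7e-05, edgeR). Its partner miR-51-5p, a member of the miR-51 family, which is broadly expressed, had 99 and 15 reads with lin-41 and 41 and 102 with gld-1 (-0.11 ± 0.66, adjusted p = 0.95, edgeR). The 5p arm took 11.7% and 3.81% of the reads of the hairpin with lin-41, 47.7% and 70.8% with gld-1 and 96.0% to 98.4% in the control.

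At mir-42 (II, 11889811 to 11889905), a gene of the miR-35 family that is needed for embryonic development, the arms had opposite signs. miR-42-3p had 10 and 9 reads with lin-41 and 112 and 233 with gld-1 (-3.52 ± 0.93, adjusted p = 0.0074, edgeR). miR-42-5p had only 23 and 4 reads with lin-41 and 1 and 2 with gld-1 (3.34 ± 1.29, adjusted p = 0.082, edgeR), and the summed reads gave a ratio of 12.0 with a wide exact 95% interval of 3.69 to 61.7. For miR-250, miR-250-5p was lower with lin-41 (19 and 2 reads, against 82 and 195 with gld-1, -3.47 ± 0.71, adjusted p = 0.00068, edgeR), while miR-250-3p was at -0.63 ± 0.94 (adjusted p = 0.80, edgeR). The difference between arms was itself not tested for any of these hairpins.

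**Figure D3:**
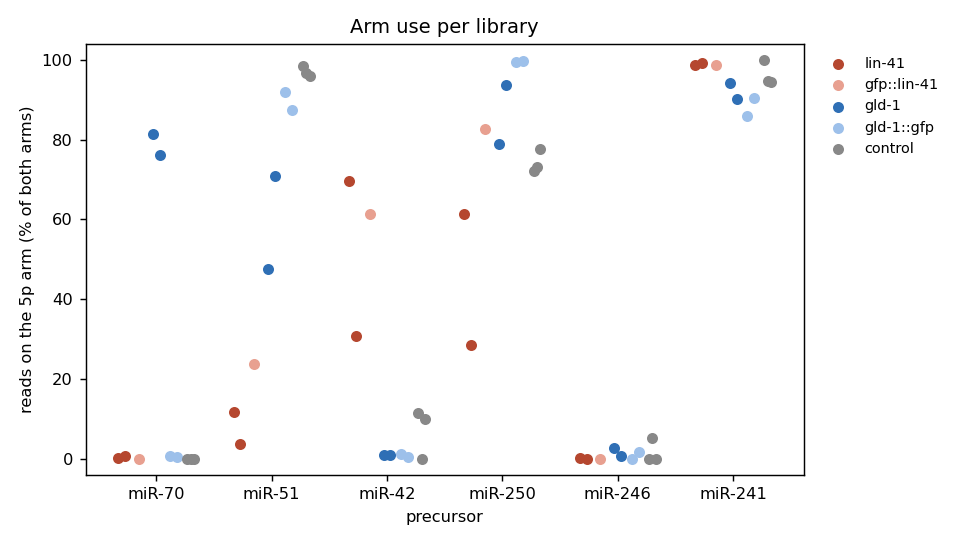
Reads on the 5p arm as a percentage of the reads of both arms (vertical axis) for 6 precursors, one point per library, coloured by pulldown. For miR-70 the gld-1 libraries are at 81.4% and 76.2% with all others plotted near 0, and for miR-51 the lin-41 libraries are lowest, at 11.7% and 3.81%.

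The other miRNAs higher with lin-41 ranged from one of the most abundant to some of the rarest. miR-72-5p (II, 2452838 to 2452936) took 11.3% and 23.4% of reads with lin-41 and 4.96% and 2.18% with gld-1 (3.49 ± 0.63, adjusted p = 0.00013, edgeR), against 1.39% to 4.19% in the control. Of its family, miR-73-3p did not pass (-1.36 ± 0.64, adjusted p = 0.18, edgeR) and miR-74-3p was not tested. miR-246-3p (IV, 10940134 to 10940230), which is known from studies of worm lifespan, had 1550 and 647 reads with lin-41 and 253 and 248 with gld-1 (2.57 ± 0.67, adjusted p = 0.0066, edgeR). Even so its shares came close, at 0.147% in the lower lin-41 library and 0.140% in the higher gld-1 library.

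miR-259-5p (V, 10539025 to 10539125) and miR-784-5p (X, 8074922 to 8075009) were close to the detection limit in gld-1 pulldowns. miR-259-5p had 48 and 68 reads with lin-41 and 1 and 3 with gld-1 (5.64 ± 1.31, adjusted p = 0.0029, edgeR), and the ratio of summed reads was 38.6 (exact 95% interval 14.7 to 144). miR-784-5p had 41 and 24 reads with lin-41 and 0 and 2 with gld-1 (5.46 ± 1.43, adjusted p = 0.0086, edgeR), a ratio of 43.3 (11.5 to 365).

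It had 10 or more reads only in the 2 lin-41 libraries and thus passed the filter on low counts through them alone, so that it could only come out higher with lin-41. Without gld-1 replicate 2 no read of it is left with gld-1, and the fitted value of 8.90 is no bound. A count of 0 in gld-1 replicate 1 allows a share of up to 0.00166% (3 reads). miR-1817 had 122 and 76 reads with lin-41 and 17 and 16 with gld-1 (3.14 ± 0.82, adjusted p = 0.0066, edgeR). miR-4932 had 154 and 33 reads with lin-41 and 16 and 16 with gld-1 (2.78 ± 0.88, adjusted p = 0.031, edgeR), and no read in any control library.

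Among those lower with lin-41, miR-233-3p and miR-248 were rare in every lin-41 library. miR-233-3p (X, 12078587 to 12078684, within W03G11.4 on the same strand) had 5 and 5 reads with lin-41 and 81 and 140 with gld-1 (-3.81 ± 0.91, adjusted p = 0.0031, edgeR). miR-248 (X, 2262373 to 2262470) had 4 and 3 reads with lin-41 and 66 and 97 with gld-1 (-3.97 ± 1.10, adjusted p = 0.010, edgeR). Neither pair of libraries overlapped the other.

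Of the 17 calls, 8 held in every alternative in which the miRNA was tested, namely let-7-5p, miR-84-5p, miR-70-5p, miR-65-5p, miR-66-5p, miR-51-3p, miR-72-5p and miR-250-5p, and no sign of the 17 changed where a value was had. miR-784-5p was tested in only 14 of the 17 alternatives, since it fails a mean of at least 10 reads and the filter without either lin-41 library, and let-7-5p and miR-84-5p were tested in 16. The other 9 lost their call when single libraries were left out. Without lin-41 replicate 1 the adjusted p-value (edgeR) became 0.11 for miR-233-3p, 0.17 for miR-248, 0.12 for miR-42-3p, 0.080 for miR-241-5p and 0.22 for miR-4932. Without lin-41 replicate 2 it became 0.066 for miR-1817, 0.056 for miR-248, 0.20 for miR-241-5p and 0.051 for miR-4932. Without gld-1 replicate 1 it became 0.063 for miR-1817, 0.051 for miR-246-3p, 0.051 for miR-259-5p, 0.13 for miR-784-5p, 0.22 for miR-241-5p and 0.19 for miR-4932. Without gld-1 replicate 2 it became 0.099 for miR-1817, 0.091 for miR-246-3p, 0.064 for miR-248, 0.051 for miR-42-3p, 0.20 for miR-241-5p and 0.24 for miR-4932.

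The other seed families listed showed few or no differences. In the miR-35 family, which is expressed in germline and embryos, 6 of 8 members were tested and only miR-42-3p passed. The median log2 fold change was -0.51, and the range reached 2.51 at miR-35-3p, which had 1937 and 553 reads with lin-41 and 208 and 347 with gld-1 (SE 0.97, adjusted p = 0.094, edgeR). No member passed in the lin-4 family (2 tested, median -0.12), the miR-58 family (4 tested, median 0.43) or the miR-44 family (3 tested, median 0.90, where miR-44-3p and miR-45-3p have the same counts and their reads cannot be told apart). For the miR-51 family only the 5p arms of mir-51 to mir-56 were listed, and none of the 4 tested passed (median -0.064). In these libraries mir-54, mir-55 and mir-56 gave mostly 3p reads, such as 716 and 215 of miR-54-3p with lin-41, against 19 and 6 of miR-54-5p. The listed set is thus not the whole seed family. miR-54-3p, miR-55-3p and miR-56-3p were tested and did not pass. Neither of the 2 tested members of the miR-2 family passed (miR-2-3p at -1.37 and miR-250-3p at -0.63). Over all 112 miRNAs the median was -0.088.

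The other abundant miRNAs named by rule did not pass. miR-71-5p, an abundant miRNA known for its role in lifespan, took 0.436% and 1.62% of lin-41 reads and 4.43% and 3.56% of gld-1 reads (-1.06 ± 0.59, adjusted p = 0.26, edgeR). miR-80-3p of the miR-58 family took 1.02% and 1.80% of lin-41 reads and 2.17% and 0.741% of gld-1 reads (1.27 ± 0.66, adjusted p = 0.21, edgeR).

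Tissue markers took small shares of the reads in these whole-worm elutions. Muscle miR-1-3p had 2 and 1 reads with lin-41, 5 and 3 with gld-1 and 1, 1 and 0 in the control libraries, too few to compare. Of the neuronal markers, lsy-6-3p had no read in any of the 4 libraries. miR-124-3p had 20 and 2 reads with lin-41, 2 and 3 with gld-1 and 0, 24 and 1 in the control libraries. Glial and seam miR-228-5p took 0.00578% and 0.0129% of lin-41 reads, 0.0414% and 0.0162% of gld-1 reads and 0.133% to 0.297% of control reads. In normalised CPM it was closer, at 225 and 205 with lin-41, 325 and 248 with gld-1 and 305 to 559 in the control. The miR-35 family as germline and embryo marker took 0.265% and 0.639% of lin-41 reads, 0.879% and 0.528% of gld-1 reads and 2.29% to 10.1% of control reads. In normalised CPM its members varied. miR-35-3p was at 7155 and 5392 with lin-41 and 901 and 1303 with gld-1, all within its control range (830 to 10516). miR-36-3p was at 70 and 88 with lin-41 and 165 and 94 with gld-1, against 118 to 779 in the control. Such values describe what came down in an elution, so that they do not measure the number of cells of a type or the RNA per cell.

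The lin-41 and the gld-1 pulldowns were next set against the control. Both comparisons use the same 3 control libraries. The 9 miRNAs higher with lin-41 were picked for high levels in the same lin-41 libraries. Their count above the control is partly given by that choice, so that nothing is read from it. Of the 9 miRNAs higher with lin-41, 8 were above the control in lin-41 pulldowns, where 13.4% of all miRNAs were, and miR-1817 was the exception (0.93 ± 0.68 with lin-41, adjusted p = 0.39, edgeR). It was below the control with gld-1 (-2.21, adjusted p = 0.037, edgeR), as were 7.14% of all miRNAs. miR-72-5p was above the control with both transcripts, at a log2 fold change of 6.33 with lin-41 and 2.84 with gld-1 (adjusted p = 4.4e-09 and 0.00028, edgeR). So were let-7-5p (7.72 with lin-41 and 1.55 with gld-1, adjusted p = 3.2e-09 and 0.049, edgeR), miR-246-3p (4.60 with lin-41 and 2.03 with gld-1) and miR-4932, whose control libraries are all at 0. miR-70-5p, with 0, 0 and 1 reads in the control, also passed with both, on 4 and 9 reads with lin-41.

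Of the 8 miRNAs lower with lin-41, 6 were above the control in gld-1 pulldowns, where 15.2% of all miRNAs were. These 8 were picked for high levels in the same gld-1 libraries, so that nothing is read from this count either. miR-84-5p was 8.07 log2 units above the control with gld-1 (adjusted p = 2.1e-09, edgeR) and at 0.95 with lin-41 (adjusted p = 0.28, edgeR). miR-65-5p was at 5.23 with gld-1 and 0.30 with lin-41, and miR-66-5p at 4.63 with gld-1 and 0.83 with lin-41. miR-250-5p was instead below the control with lin-41 (-2.07, adjusted p = 0.026, edgeR), as were 4.46% of all miRNAs, and at 1.40 with gld-1 (adjusted p = 0.082, edgeR), and miR-42-3p passed in neither comparison.

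The gfp-tagged pulldowns gave the same pair of transcripts with one set of probes. In gfp::lin-41 against gld-1::gfp, all 17 miRNAs had the sign of the endogenous comparison, where 64.3% of all tested miRNAs did. In the tagged pair that shares the name prefix E, 16 of the 17 had it, and miR-248 was at 0.16. No p-value was computed because gfp::lin-41 has 1 library. For 12 of the 17 the tagged difference exceeded 1 log2 unit in size, as it did for 47 of the 112 tested miRNAs. Among the 12 were let-7-5p (4.22), miR-84-5p (-9.60), miR-51-3p (3.45), miR-66-5p (-3.36) and miR-250-5p (-4.23). Some rest on few reads. miR-259-5p (3.20) had 75 reads in gfp::lin-41 and 15 and 1 in gld-1::gfp. miR-70-5p (-6.91) had 0 reads in gfp::lin-41 and 23 and 17 in gld-1::gfp. miR-784-5p (3.54) had 3 reads in gfp::lin-41 and 0 and 0 in gld-1::gfp.

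For the other 5 the tagged difference was smaller, with miR-72-5p at 0.22, miR-233-3p at -0.029, miR-248 at -0.29, miR-1817 at 0.49 and miR-241-5p at 0.58. miR-72-5p took 19.9% of reads in gfp::lin-41 and 21.1% and 22.9% in gld-1::gfp, all within the range of the endogenous lin-41 libraries and above both endogenous gld-1 values.

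The endogenous and the tagged gld-1 pulldowns can be tested against each other, with 2 libraries each. Of the 8 miRNAs that were lower with lin-41, 4 were also lower with gld-1::gfp than with gld-1 (6.25% of all tested miRNAs were). Both comparisons share the 2 gld-1 libraries in which these miRNAs are high, so that nothing is read from this count. These were miR-70-5p (-8.51 ± 1.12, adjusted p = 2.4e-05), miR-65-5p (-4.48 ± 0.72, adjusted p = 8.3e-05), miR-233-3p (-3.89 ± 0.86, adjusted p = 0.0024) and miR-248 (-5.13 ± 1.1, adjusted p = 0.0024), all by edgeR. The remaining 4 did not differ detectably between gld-1::gfp and gld-1, with log2 fold changes of 1.63 ± 0.65 for miR-84-5p, -0.63 ± 0.59 for miR-66-5p, 1.5 ± 0.63 for miR-250-5p and 0.24 ± 0.80 for miR-42-3p (adjusted p = 0.12, 0.63, 0.15 and 0.93, edgeR). miR-72-5p was higher in gld-1::gfp than in gld-1 (3.82 ± 0.64, adjusted p = 9.9e-05, edgeR), as were 5.36% of all tested miRNAs. The transgene and its probes differ together between these groups and cannot be told apart.

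**Figure D4:**
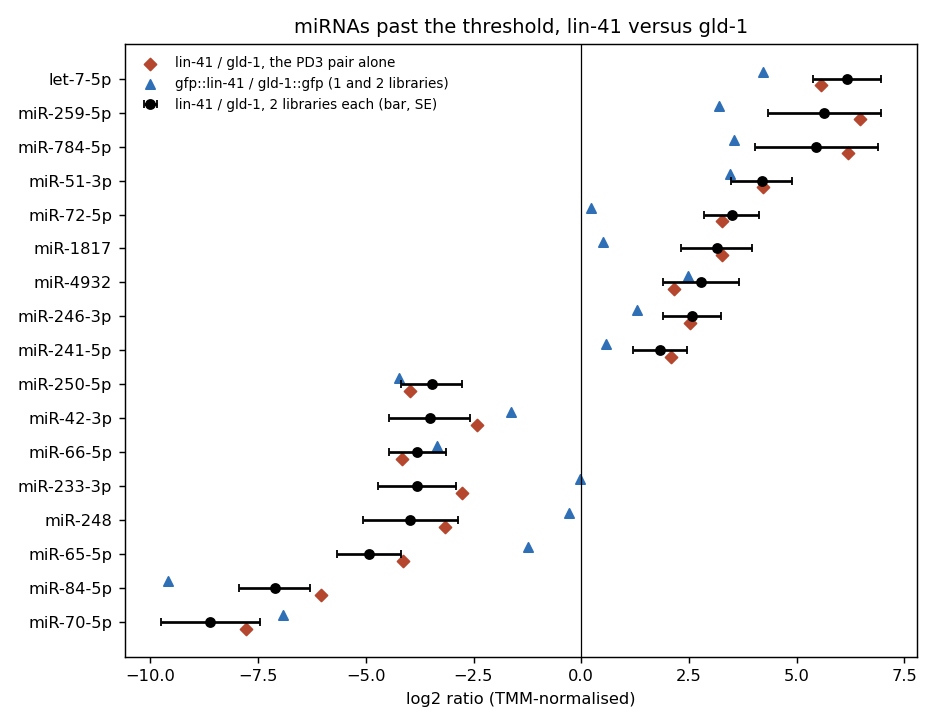
Log2 ratios (horizontal axis) of the 17 miRNAs past the threshold, with the lin-41 to gld-1 estimate over 2 libraries each as black circles (bar, SE), the pair of libraries that share the name prefix PD3 as red diamonds and gfp::lin-41 over gld-1::gfp as blue triangles. All markers of a miRNA lie on one side of 0, and the triangles of miR-72-5p (0.22), miR-233-3p (-0.029) and miR-248 (-0.29) lie closest to it.

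Library names carry a prefix that may mark a batch. Only lin-41 replicate 2 and gld-1 replicate 1 share one (PD3), so that a single prefix holds only 1 library of each group. With the prefix as a factor over all 16 libraries, 14 miRNAs were higher and 11 lower with lin-41 (edgeR), all 17 above among them. Within the PD3 pair the sign of the 17 is given by their separation in all 4 libraries, and the log2 differences were 5.56 for let-7-5p, -6.04 for miR-84-5p, -7.78 for miR-70-5p, -4.13 for miR-65-5p, 4.22 for miR-51-3p and 3.26 for miR-72-5p.

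**Figure D5:**
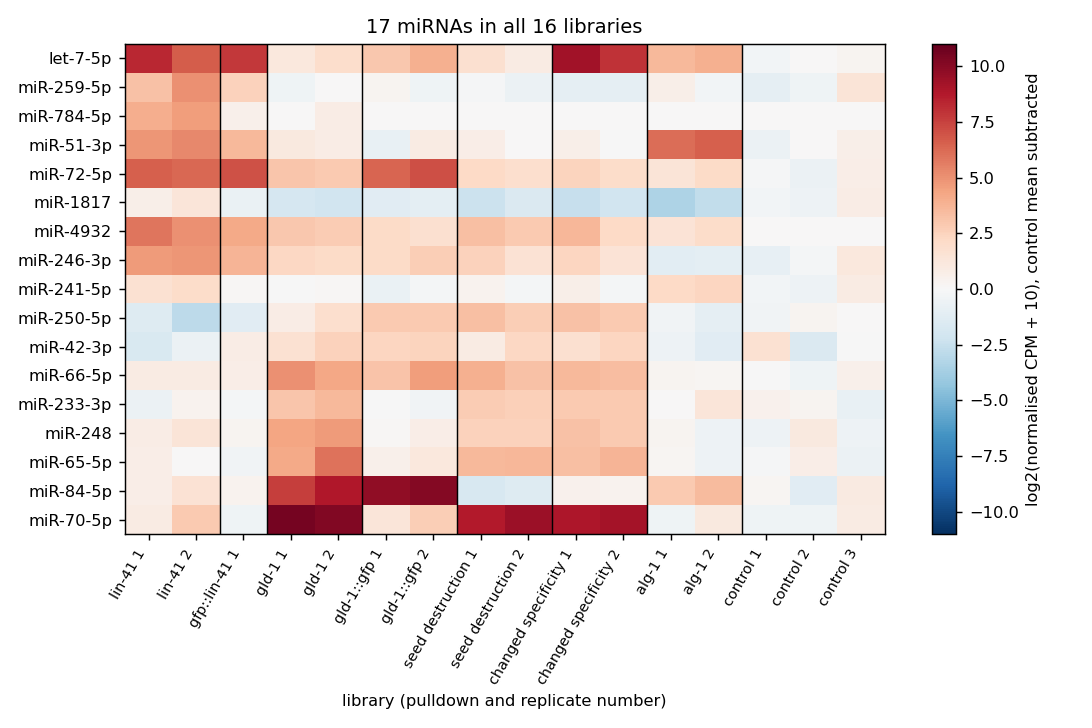
Level of the 17 miRNAs (rows) in all 16 libraries (columns, grouped by pulldown), as log2(normalised CPM + 10) with the mean of the 3 control libraries subtracted, red above and blue below the control. let-7-5p is highest in the lin-41, gfp::lin-41 and changed specificity columns, miR-84-5p in the gld-1 and gld-1::gfp columns, and miR-70-5p (4612 and 4146 reads with gld-1) in the columns of the gld-1 probes.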

How the data were processed

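Small RNA of pulldown elutions was extracted with TRIzol and made into libraries by poly(A) tailing. Per the study's methods the authors trimmed reads with cutadapt 1.14, removed Escherichia coli reads with bowtie2 2.3.3.1 and counted known miRNAs with miRDeep2 and miRBase; the genome build for counting is not given in the sources used here. The deposited values are raw read counts per mature miRNA and precursor, and the largest row was used where a miRNA had several. Reads of near-identical miRNAs can be shared between them.

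Groups came from sample titles. A minimum of 10 reads in 2 libraries left 112 of 434 miRNAs (at least 99.78% of reads), which were fitted with edgeR 4.0.16 in R 4.3.3 (TMM factors, robust quasi-likelihood fit, 1 mean per group, all 16 libraries, Benjamini-Hochberg threshold 0.05). TMM factors were 0.257 and 0.628 for lin-41 and 1.27 and 0.652 for gld-1, and the common biological coefficient of variation was 0.532. SE values are the absolute log2 fold change over the root of F. An exact permutation test of 2 against 2 libraries cannot go below 0.333 and was not run. In 20 simulated data sets for lin-41 versus gld-1, 20 of 112 miRNAs were changed 16-fold. The fit recovered 95.5% of raised and 92.0% of lowered miRNAs, with 0.7 false calls on average. All simulated libraries were drawn from the mean control profile with 1 common spread for all miRNAs. The lin-41 and gld-1 libraries are far less even than the control, so that these rates may not carry over to them.

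Named miRNAs are the let-7-family members let-7, miR-48, miR-84 and miR-241, all miRNAs past the threshold, the 5 most abundant in each pulldown, their other arms and family examples. The comparison, the family and marker lists and the alternatives were chosen with earlier results of these data known. The test of gld-1::gfp against gld-1 was added after the data were seen. The alternatives were other size factors (RLE, upper quartile, library totals), other filters, DESeq2 1.42.0, no robust estimation, summed rows, only the compared libraries, the replicate number or name prefix in the model, let-7-5p and miR-84-5p left out, and each library left out. Precursor positions come from Ensembl and RefSeq annotation of WBcel235 by name, found for all 112 miRNAs. miRNA sequences were not used here.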

Additional observations from a re-analysis of the deposited data

Results flagged for a closer look

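In pulldowns that the comparison did not use, 3 of the 17 miRNAs had levels in both libraries at least 10 times that of the highest control library (or of 3 reads there, where that was more). Only the 17 were put to this rule, so that the share over all tested miRNAs is not known. let-7-5p was at least 205 times the highest control library in the gld-1 pulldowns from the strain with changed specificity of the miR-84 site. That edit was designed to make a let-7 site, and the paper already reports let-7 as the top enriched miRNA there. miR-70-5p, with 1208 to 3025 reads, was at least 130 times that limit in the strain with a destroyed miR-84 seed site and at least 142 times in the strain with changed specificity, which both were retrieved with the gld-1 probes. miR-51-3p, which was higher with lin-41 than with gld-1, was at least 48.9 times the highest control library in alg-1 pulldowns, on 1832 and 1468 reads. Such levels are not particular to the 17. miR-71-5p had 258732 and 425262 normalised CPM in alg-1 pulldowns, against 8152 in the highest control library. In the strain with changed specificity miR-253-3p had 29003 and 8627, against 347 in the highest control library.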

How the results depend on the processing

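let-7-5p (4.82 to 6.76) and miR-84-5p (-7.88 to -6.31) kept direction and call in all 16 alternatives that hold them. Of 9 higher and 8 lower miRNAs, library totals gave 5 and 16, and the name prefix as a factor gave 14 higher and 11 lower. Library totals ended the calls of miR-241-5p (0.81), miR-1817 (2.13), miR-246-3p (1.44) and miR-4932 (1.46), miR-241-5p also lost its call with RLE factors and summed rows, and no filter on low counts ended those of miR-241-5p and miR-4932. Leaving out 1 library gave 4 to 6 higher and 6 to 9 lower (11 in all without gld-1 replicate 2). The cause was not tested for the scaling and the prefix; a fit without a library has fewer samples. Among the 21 miRNAs followed through the alternatives, the sign turned in 2, both without a call: miR-48-5p was at 0.090 with upper-quartile factors, 0.027 without let-7-5p and miR-84-5p in the counts, and up to 0.46 when 1 library was left out (range -0.82 to 0.46), and miR-80-3p was at -0.047 with library totals. The replicate block gave 10 higher and 9 lower. Same-numbered lin-41 and gld-1 libraries had a correlation of deviations of -0.16. With 2 libraries a group the crossed pairing only turns this sign, so that it cannot tell whether replicate numbers pair the samples. The crossed pairing, which joins the PD3 libraries and was added after the data were seen, gave 11 and 10. DESeq2 called 19, among them all 17. Depth limits the rare miRNAs: 3 reads are 0.0241% of the smallest control library.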

Other observations

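Several miRNAs missed the threshold of the lin-41 to gld-1 test, and were picked here after their values were seen. miR-788-5p had 89 and 52 reads with lin-41 and 30 and 9 with gld-1 (2.35 ± 0.82, adjusted p = 0.051, edgeR), and 2613 reads with gfp::lin-41 against 48 and 3 with gld-1::gfp. miR-35-3p had 15396 reads with gfp::lin-41 against 1224 and 158 with gld-1::gfp, and 55 to 3376 in the control libraries. miR-34-5p, whose role in stress responses is known, had 31 and 1 reads with lin-41 and 75 and 117 with gld-1 (-2.49 ± 0.89, adjusted p = 0.056, edgeR). Its tagged difference was smaller, at -0.77, on 142 reads with gfp::lin-41 against 216 and 101 with gld-1::gfp. miR-77-5p had 471 and 129 reads with lin-41 and 565 and 2318 with gld-1 (-1.89 ± 0.70, adjusted p = 0.064, edgeR). Its tagged difference had the opposite sign, at 0.46, on 406 reads with gfp::lin-41 against 148 and 149 with gld-1::gfp.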
